A study of Homo sapiens with 12 samples.

Results

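The 7 genes described here act on chromosomes and on the microtubule machinery of dividing cells. NCAPH and NCAPG are subunits of condensin, RAD21 is a subunit of cohesin, PRC1 works at the spindle midzone, and CEP192, CEP164 and CEP290 are proteins of the centrosome, the centriole and the base of the cilium. They were chosen by name: every row of the 12 deposited splicing tables that carries one of these symbols was taken, which gave 7 of the 2365 rows. NCAPH, RAD21, PRC1 and CEP290 each had 1 intron in the DEXSeq table of MTAP-null cells, among its 1549 features, and NCAPG, CEP192 and CEP164 each had 1 event in the rMATS tables of MTAP-null cells, among 459. No row of the 7 genes was listed among the 258 features and 99 events of MTAP-WT cells. The tables hold features that passed the authors' tests, so the 7 genes in MTAP-WT cells were not analysed here.

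The cells were HCT116, an established human colon cancer line from Horizon Discovery, in engineered MTAP null and WT forms, and the labels do not say how many clones were used or which part of MTAP was removed. Each genotype was given AGI24512, or DMSO, the solvent control, and the series title speaks of a MAT2A inhibitor; dose and time are not stated in the labels. The 4 groups were thus MTAP-null with AGI24512, MTAP-null with DMSO, MTAP-WT with AGI24512 and MTAP-WT with DMSO, with 3 libraries of poly-A RNA each. Whether the 3 libraries come from separately grown cells is not stated, so p-values measure only the spread between libraries, which may be technical.

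MAT2A makes S-adenosylmethionine, the methyl donor of the cell, and MTAP clears methylthioadenosine, a by-product that inhibits the arginine methyltransferase PRMT5, which modifies many splicing proteins. A detained intron is an intron that stays in a polyadenylated transcript, which is then held in the nucleus and yields no protein until the intron is removed. Condensin and cohesin are ring-shaped complexes built on SMC proteins: condensin folds chromosomes for mitosis and cohesin holds sister chromatids together until anaphase. PRC1 bundles antiparallel microtubules between the separating chromosomes and is needed for cytokinesis, and the centrosome organises the spindle poles and, in resting cells, its older centriole seeds the primary cilium.

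Read counts over the listed features summed to 113064 to 214530 per MTAP-null library and 50919 to 65080 per MTAP-WT library, and these sums are not the sequencing depth. A feature of MTAP itself was listed in MTAP-null cells, at 163.1, 223.4 and 254.4 normalised reads with AGI24512 and 87.4, 96.2 and 101.3 with DMSO. It does not check the genotype, since the removed part of the gene is not given. In MTAP-null cells edgeR's quasi-likelihood test called 77.6% of all listed features as risen in read count and 4.65% as fallen, so a rise is the common outcome in this table. Each listed feature had passed the authors' test on the same libraries, so the edgeR p-values, here and below, are not independent of that selection. A median change of 0.95 on the log2 scale over all 1549 features is the level against which each gene below is set. It dropped to 0.50 when libraries were scaled by their summed counts and to 0.11 with TMM scaling on the listed features. Both scalings were computed from the listed features alone, most of which rose. They therefore remove part of a shared rise by construction, also from features near the median.

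All 4 introns rose in read count with AGI24512 by edgeR, with each AGI24512 library above each DMSO library, against backgrounds of 77.6% for the test and 75.9% for the lack of overlap. NCAPH and PRC1 rose by more than the median feature, while RAD21 and CEP290 changed about as much as it did. The intron of CEP290 differed from the other 3 in its share of the gene's reads, which was lower with AGI24512. Usage, the authors' measure of that share, is a fitted score and not a fraction of reads. Its log2 changes are therefore not on the scale of the read count changes. Usage was higher with AGI24512 for NCAPH, PRC1 and RAD21, a direction that 93.5% of the listed features had in the authors' deposited table. At the authors' adjusted p below 0.01, which 59.3% of the features met, NCAPH alone of the 4 remained.

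**Figure D1:**
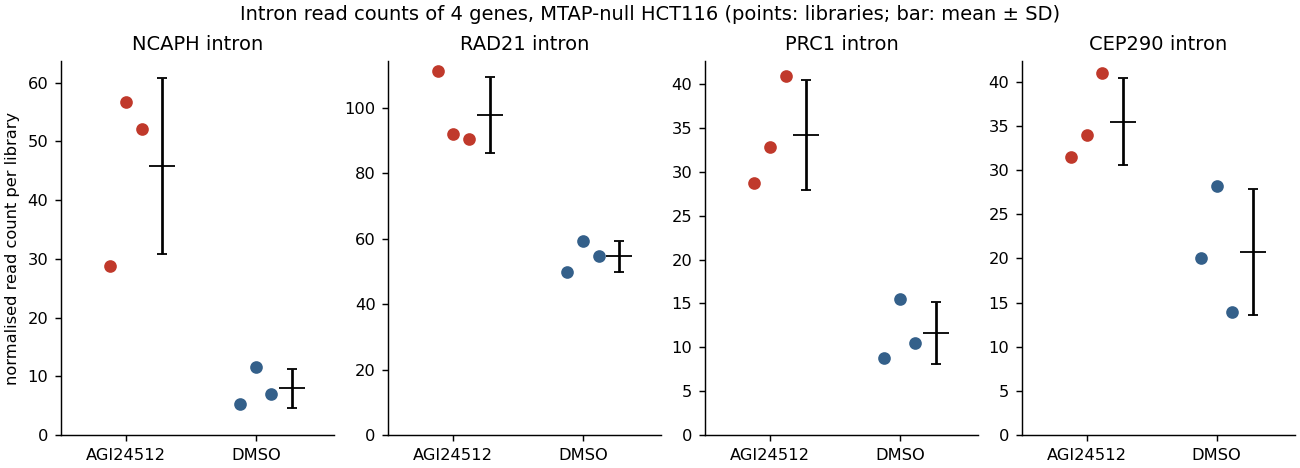
Normalised read counts of the NCAPH, RAD21, PRC1 and CEP290 introns in each MTAP-null library, AGI24512 left and DMSO right in each panel, with the mean and SD of 3 libraries as a bar beside the points; every panel starts at 0 and has its own scale. All AGI24512 points lie above all DMSO points in each panel, with the highest fold for NCAPH (45.9 against 7.96 on average) and the lowest for CEP290 (35.5 against 20.7).

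NCAPH is the kleisin of condensin I, the subunit that closes the ring between the SMC2 and SMC4 heads. Its listed feature was the whole of intron 9 of 17 in the GENCODE transcript NCAPH-201 (chromosome 2, 96354389 to 96359044, plus strand, 4656 bases), which interrupts the coding sequence after 1208 of 2223 bases. The exon ends that splicing of this intron must join are shown because they bound the intron that changed most among the 4; the capitals mark the last 3 bases of exon 9.
NCAPH exon 9, last 30 bases (chr2:96354359-96354388, plus strand): gaaggagccctgccaggttcagagctgCCA
NCAPH exon 10, first 30 bases (chr2:96359045-96359074, plus strand): ggaagaaatgatttcccttggggatggaga

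The NCAPH intron had 28.7, 56.7 and 52.2 normalised reads in the AGI24512 libraries, against 5.24, 11.7 and 6.98 in the DMSO libraries. The lowest AGI24512 library was still more than double the highest DMSO library. The means were 45.9 ± 15 with AGI24512 and 7.96 ± 3.32 with DMSO (SD, n = 3 each), a 5.76-fold difference. The read count rose by 2.5 (log2), with a standard error of 0.37 (edgeR adjusted p = 0.000109). That is 1.55 above the median feature and places the intron at rank 51 of 1549 from the top. Usage was 10.3 with AGI24512 and 5.0 with DMSO on the authors' fitted scale, and the log2 change of usage in the authors' deposited table was 1.05 (adjusted p = 0.00273). NCAPH held its call in every alternative tried, though all drew on the same libraries in which the feature was selected. Its lowest log2 change, 1.65, came with TMM scaling.

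NCAPG, the HEAT-repeat subunit of the same condensin complex, was listed for an alternative 5′ splice site and not for an intron. The event lengthens exon 18 of NCAPG-201 (chromosome 4, plus strand) by 31 bases, from 17840210 to 17840240, and both forms join exon 20, leaving out the annotated exon 19 of 87 bases. Codon 923 holds the last base of the short exon 18, and 31 bases do not divide by 3, so the long form moves the reading frame. The end of the short form is shown as the site from which the longer form departs; the sequence of the 31 bases was not in the transcripts used.
NCAPG exon 18, last 30 bases (chr4:17840180-17840209, plus strand): tgactacaactactttccaaaatgaagatg

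The rMATS headers call the compared sides set 1 and set 2 and do not say which was treated, so no direction with AGI24512 can be given for this and the other 2 events. In the authors' deposited table the long form of NCAPG had inclusion levels of 0.273, 1.0 and 0.693 in set 1 and 0.2, 0.0 and 0.0 in set 2. The sets do not overlap, but the lowest library of set 1 (0.273) lies close to the highest of set 2 (0.2). The levels rest on 6, 6 and 8 reads in set 1 and 8, 1 and 1 reads in set 2, so each moves far with 1 read. The authors' difference was 0.589 with an FDR of 0.00682, and an exact two-sided permutation test of the 6 levels gave p = 0.1, the smallest that 3 against 3 allows. LCORL, a coding gene on the opposite strand, overlaps the region of the event, and use of strand is not given in the sources used here.

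RAD21 is the kleisin of cohesin and the subunit that separase cuts at anaphase. Its feature was intron 12 of 13 in RAD21-201 (chromosome 8, 116849030 to 116850617, minus strand, 1588 bases), after 85.6% of the coding sequence. An exon of the shorter coding transcript RAD21-203 reaches into the feature, and UTP23, a coding gene on the opposite strand, overlaps 434 of its bases. Reads of these cannot be told apart from reads of the intron here.

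With 111.2, 91.8 and 90.4 normalised reads in the AGI24512 libraries and 49.8, 59.3 and 54.7 in the DMSO libraries, RAD21 had the highest count of the 4 introns and the smallest relative spread. The means were 97.8 ± 11.6 with AGI24512 and 54.6 ± 4.73 with DMSO (SD, n = 3 each), or 1.79-fold. The groups were separated by more than 30 reads. The read count rose by 0.84 (log2), with a standard error of 0.20 (edgeR adjusted p = 0.0017), a change of -0.11 relative to the median feature. The log2 change of usage in the authors' deposited table was 0.28 (adjusted p = 0.0118), the smallest rise in usage of the 3 introns with higher usage. The call depended on the scaling, and both alternatives lower the median feature as well. For RAD21 the log2 change was 0.41 with summed counts (edgeR adjusted p = 0.0716) and 0.02 with TMM (edgeR adjusted p = 0.965).

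PRC1 crosslinks microtubules at the midzone and recruits the kinesin KIF4A there. Its feature covered 32.3% of the last intron of PRC1-202, intron 14 (chromosome 15, 90967203 to 90967808, minus strand, 606 bases), the stretch next to the last exon, after 96.3% of the coding sequence. The last exon starts with the bases below, shown because every PRC1 transcript with the feature's 3′ splice site continues into them.
PRC1 exon 15, first 30 bases (chr15:90967173-90967202, minus strand): cgagaactttcaaaggcttccaaatctgat

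The PRC1 feature had 28.7, 32.9 and 41.0 normalised reads in the AGI24512 libraries, against 8.74, 15.5 and 10.5 in the DMSO libraries. No AGI24512 library came near the DMSO range, and the means were 34.2 ± 6.24 with AGI24512 and 11.6 ± 3.54 with DMSO (SD, n = 3 each), or 2.95-fold. The read count rose by 1.56 (log2), with a standard error of 0.31 (edgeR adjusted p = 0.000717), 0.60 above the median feature. The log2 change of usage in the authors' deposited table was 0.54 (adjusted p = 0.0365), close to the median of 0.56 over the table. With TMM scaling the log2 change was 0.72 and missed the threshold (edgeR adjusted p = 0.0633). PRC1-AS1 on the opposite strand and AC068831.7, a coding gene on the same strand, cover all 606 bases, and their reads cannot be told apart from those of PRC1 here.

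CEP192 is the scaffold of the pericentriolar material that brings the kinases AURKA and PLK4 to the centrosome. Its event was an alternative 3′ splice site in exon 5 of CEP192-203 (chromosome 18, plus strand), which joins exon 4 either to the first base of exon 5 or to a site 26 bases further in. The whole exon and the end of exon 4 are shown, because the event is a choice between the capitals and their loss; the capitals are the 26 bases kept only in the long form. They end in AG, the dinucleotide that closes an intron.
CEP192 exon 4, last 20 bases (chr18:13008612-13008631, plus strand): accactggaacaagcacaag
CEP192 exon 5 (chr18:13012973-13013025, plus strand): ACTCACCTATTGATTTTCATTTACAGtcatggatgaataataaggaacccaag

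Loss of the 26 bases shifts the reading frame at codon 156. In the reference transcript without them the first stop is codon 160, whereas the annotated stop is codon 2538. Long-form levels in the authors' deposited table were 1.0, 0.916 and 0.981 in set 1 and 0.723, 0.593 and 0.689 in set 2, a difference of 0.297 with an FDR of 7.55e-07. The short form was thus rare in set 1 and clearly present in every library of set 2. Reads for the short form numbered 0, 1 and 1 in set 1, beside 50, 14 and 66 for the long form, and 9, 14 and 6 in set 2, beside 30, 26 and 17. The length given to the long form, 120 bases, is 94 for the short form plus the 26. As for NCAPG, reads over the 26 bases can thus count as long form without the splice junction. It is the best covered of the 3 events, with 15 to 67 reads per library, and the exact two-sided permutation test of its levels gave p = 0.1, the smallest possible.

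CEP164 is a distal appendage protein of the older centriole and is needed to start a cilium. Its event was a skipped exon, exon 14 of 33 in CEP164-201 (chromosome 11, 117382796 to 117382942, plus strand, 147 bases), flanked by exons 13 and 16; exon 15, of 210 bases, is in neither form. The exon is printed with the 30 intron bases before it, since the event turns on whether this splice site is used; the capitals mark the exon.
CEP164 exon 14 (chr11:117382766-117382942, plus strand): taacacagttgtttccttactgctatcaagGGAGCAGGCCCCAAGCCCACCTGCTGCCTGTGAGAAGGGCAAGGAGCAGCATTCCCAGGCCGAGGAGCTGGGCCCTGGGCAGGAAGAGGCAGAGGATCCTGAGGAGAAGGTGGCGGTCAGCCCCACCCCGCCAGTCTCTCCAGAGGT

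Skipping exon 14 keeps the reading frame, because 147 divides by 3. With exon 15 absent, as both forms of the event are defined, the first stop is codon 1342 without exon 14 and codon 1391 with it. The exon was included at levels of 0.661, 0.328 and 0.577 in set 1 and 1.0, 1.0 and 1.0 in set 2 of the authors' deposited table. No skipping read was found in set 2, where the libraries had 8, 10 and 4 reads, while set 1 had 1, 4 and 2 skipping reads among 6, 9 and 9. The length of 241 bases that the files give to the included form, 94 for the skipped form plus the 147 of the exon, means that reads lying within the exon were counted too. Such reads do not show whether exon 15 was absent from the transcripts counted. The authors' difference was -0.478 with an FDR of 0.0490, just inside the limit of their table, and the exact two-sided permutation test gave p = 0.1. At this depth small levels of skipping in set 2 were not detectable.

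**Figure D2:**
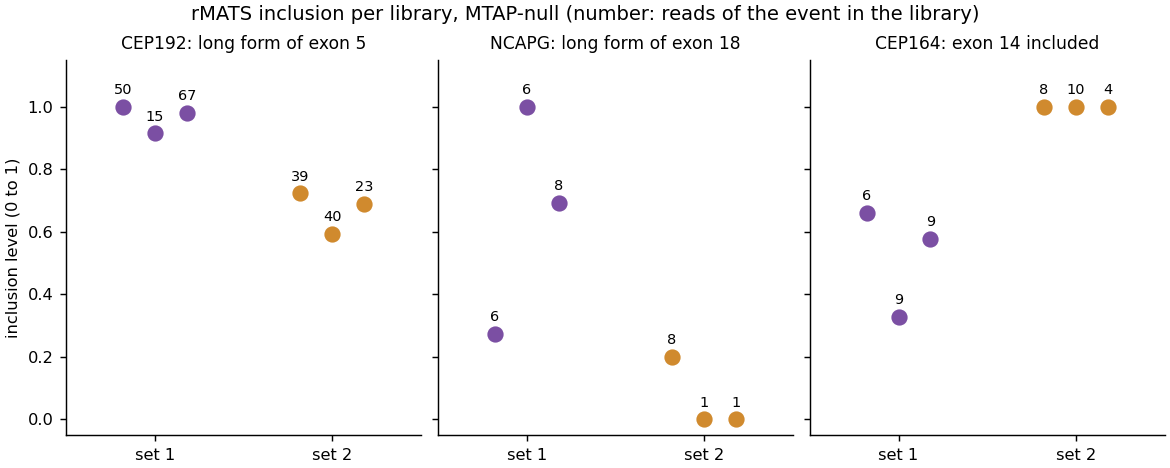
Inclusion level (0 to 1) of the CEP192, NCAPG and CEP164 events in each MTAP-null library, set 1 left and set 2 right as the authors' tables name them, with the number of reads counted for the event in each library above its point. The sets do not overlap in any panel, and the CEP192 points rest on 15 to 67 reads while those of NCAPG and CEP164 rest on 1 to 10.

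The sets of all 3 events did not overlap, which also held for 90.2% of the 459 events listed in MTAP-null cells. At an FDR below 0.01, which 60.3% of those events met, CEP192 and NCAPG remained and CEP164 did not. None of the 3 had 20 reads in every library.

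CEP290 builds the transition zone, the gate between the cilium and the cell body, and its loss in people causes ciliopathies. Its feature was intron 6 of 53 in CEP290-207 (chromosome 12, 88131219 to 88136642, minus strand, 5424 bases), early in the gene, after 5.93% of the coding sequence. The annotated coding transcript CEP290-206 reads through the start of the intron, so the 5′ splice site can be shown. Reads of CEP290-206 in this stretch cannot be told apart from reads of the intron here. The capitals mark the first 6 bases of the intron.
CEP290 exon 6, last 20 bases, and intron 6, first 40 bases (chr12:88136603-88136662, minus strand): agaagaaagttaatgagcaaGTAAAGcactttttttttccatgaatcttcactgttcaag

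The CEP290 intron had 31.5, 34.0 and 41.0 normalised reads in the AGI24512 libraries, against 20.1, 28.2 and 14 in the DMSO libraries. The gap between the groups was the smallest of the 4 introns, 31.5 in the lowest AGI24512 library against 28.2 in the highest DMSO library. The means were 35.5 ± 4.92 with AGI24512 and 20.7 ± 7.13 with DMSO (SD, n = 3 each), or 1.71-fold. The read count rose by 0.76 (log2), with a standard error of 0.29 (edgeR adjusted p = 0.0241). This call was lost without AGI24512 replicate 3 (edgeR adjusted p = 0.0825), DMSO replicate 1 (0.0714) or DMSO replicate 3 (0.102) and with summed counts (0.329), and the log2 change was -0.09 with TMM scaling.

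Usage of the CEP290 intron went the other way, at 7.33 with AGI24512 and 10.1 with DMSO, and the log2 change in the authors' deposited table was -0.47 (adjusted p = 0.0231). Of the 100 MTAP-null features with lower usage, 4 had a read count that rose by edgeR, CEP290 among them. The other 3, chosen after their values were seen, were MAT2A itself, with a log2 change of the read count of 1.16, AP1S1, a subunit of a clathrin adaptor, with 0.53, and CEBPZ, a CCAAT-binding protein, with 0.23. The reads over the other stretches of CEP290, against which usage is measured, were not analysed here.

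**Figure D3:**
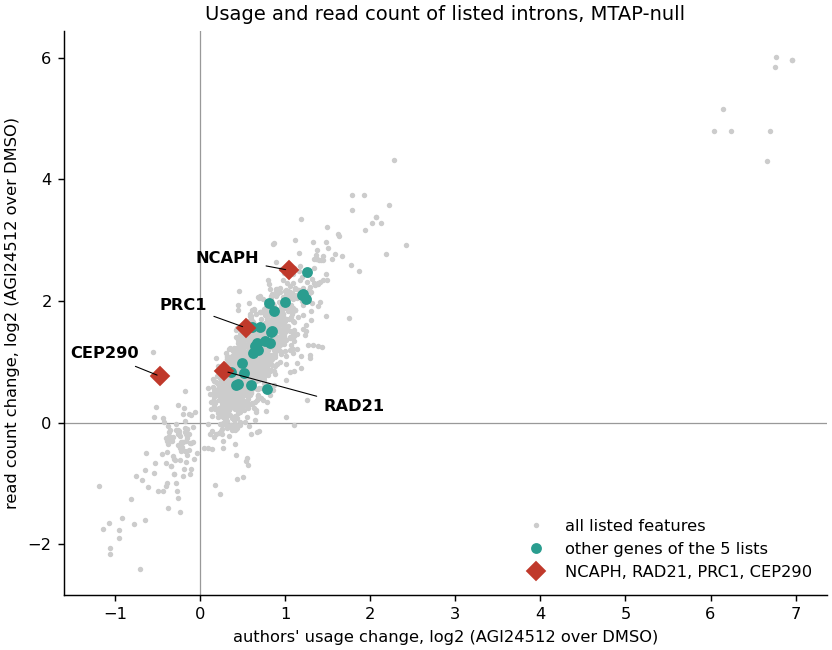
Change of usage in the authors' table (x axis, log2) against change of the read count by edgeR (y axis, log2), both AGI24512 over DMSO, for the 1549 features listed in MTAP-null cells (grey), with other genes of the 5 gene lists in teal. NCAPH, PRC1 and RAD21 lie with the bulk of the features at the upper right, while CEP290 lies at upper left (usage -0.47, read count 0.76). Usage is a fitted score, so distances along the x axis and the y axis are not on a like scale.

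Read counts per length differed between the 4 features. Those of RAD21 and PRC1, the highest, include any reads of the overlapping UTP23, RAD21-203, AC068831.7 and PRC1-AS1. Those of CEP290 include any reads of CEP290-206. The order is thus one of features and not of introns alone. With AGI24512 the order was RAD21 at 61.6 ± 7.32 normalised reads per kb, PRC1 at 56.4 ± 10.3, NCAPH at 9.85 ± 3.22 and CEP290 at 6.55 ± 0.907 (SD, n = 3). RAD21 and PRC1 did not differ beyond their spread, nor did NCAPH and CEP290. With DMSO the order was RAD21 at 34.4 ± 2.98, PRC1 at 19.1 ± 5.84, CEP290 at 3.82 ± 1.31 and NCAPH at 1.71 ± 0.713 reads per kb. The NCAPH feature was thus the lowest of the 4 per length with DMSO and passed CEP290 with AGI24512, but this last pair lies within its spread. In bulk RNA a share of cells with much intron and a small amount in every cell cannot be told apart.

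Likeness to other features was measured as the distance between profiles of log2(normalised count + 1), each centred on its mean, over the 6 MTAP-null libraries. The nearest to NCAPH was TRAIP, a ubiquitin ligase of mitosis and replication, at a distance of 0.286, against a median of 2.07 over the features compared. The nearest is the smallest of many distances, so it lies under the median by choice. Centring removes the level of a profile. TRAIP averaged 11.4 normalised reads with AGI24512 and 1.33 with DMSO, and NCAPH 45.9 and 7.96. RAD21 was nearest to TBC1D9B, a Rab GTPase-activating protein, at 0.14 (median 0.959), PRC1 to ZNF282, a zinc-finger protein, at 0.258 (median 1.17), and CEP290 to PLEKHM2, a lysosome adaptor, at 0.237 (median 1.03). Usage was higher with AGI24512 for PLEKHM2, at 0.67 on the log2 scale in the authors' deposited table, so the feature most like CEP290 in read counts was not like it in share.

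Other genes of these machines were read from 5 lists of 176 genes in all, of which 26 had a feature listed in MTAP-null cells. Apart from the 4 introns above, these were 24 features, and 23 of them rose by edgeR, against a background of 77.6%. With the size factors recovered from the deposited table, none had a negative log2 change by edgeR or DESeq2. Their median log2 change was 1.33, between 0.56 and 2.47, beside 0.95 over all features and 0.99 over those with higher usage. Of the 100 features with lower usage, none of them among the 24, only 4 rose. The background of 77.6% is therefore low for features with higher usage. With TMM scaling 9 of the 24 rose, against 16.2% of all features, none was called as fallen, and 6 had negative log2 changes. Usage was higher with AGI24512 for all 24, a direction that 93.5% of all listed features had, so nothing particular to these genes is read from it.

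Condensin had no MTAP-null feature other than NCAPH among its 8 genes. Of 20 cohesin genes only DDX11, a helicase of sister chromatid cohesion, was listed beside RAD21, at 28.5 ± 6.39 normalised reads with AGI24512 and 6.50 ± 1.18 with DMSO (SD, n = 3 each), a log2 change of 2.09 (edgeR adjusted p = 0.00022). Of 23 central spindle and cytokinesis genes, CIT, the citron kinase of the cleavage furrow, rose 3.57-fold and CLASP1, a microtubule plus-end protein, 2.53-fold. CLASP1 had no call under TMM scaling (log2 change 0.51).

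The centrosome and centriole list had 12 of its 80 genes among the listed, with 13 features that include CEP290, and all 13 rose by edgeR; with TMM scaling, 3 of the other 12 rose and 5 had negative log2 changes. CEP89, a distal appendage protein like CEP164, rose 2.80-fold, at 276.5 ± 40.2 normalised reads with AGI24512 and 98.7 ± 19.8 with DMSO (SD, n = 3 each; edgeR adjusted p = 1.88e-05). CEP170B had 2 features: the one with more reads rose 1.76-fold with libraries that overlapped between the groups, and the other rose 1.54-fold (edgeR adjusted p = 0.00634) with no overlap. CEP57, a pericentriolar protein, rose 1.55-fold. The first CEP170B feature and CEP57 turned negative with TMM scaling, at -0.05 and -0.21 on the log2 scale, both lost their call with summed counts, and CEP57 lost it without DMSO replicate 1.

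The transition zone and cilium list had 8 of 45 genes with 9 features, of which 8 rose, and 4 with TMM scaling. IQCB1, also called NPHP5, binds CEP290 at the transition zone and rose 2.85-fold, at 172.3 ± 64.8 normalised reads with AGI24512 and 60.5 ± 13.6 with DMSO (SD, n = 3 each). AHI1, another ciliary protein, rose 2.39-fold in the one of its 2 introns with more reads, a call lost with TMM scaling (log2 change 0.38). IFT27, of the intraflagellar transport machinery, stood at 72.6 ± 26.8 normalised reads with AGI24512 and 48.9 ± 17.4 with DMSO (SD, n = 3 each) and missed the threshold, at 0.56 on the log2 scale (edgeR adjusted p = 0.0927). IFT27 passed without AGI24512 replicate 1 or DMSO replicate 2 and with the replicate block, and was -0.30 with TMM scaling.

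**Figure D4:**
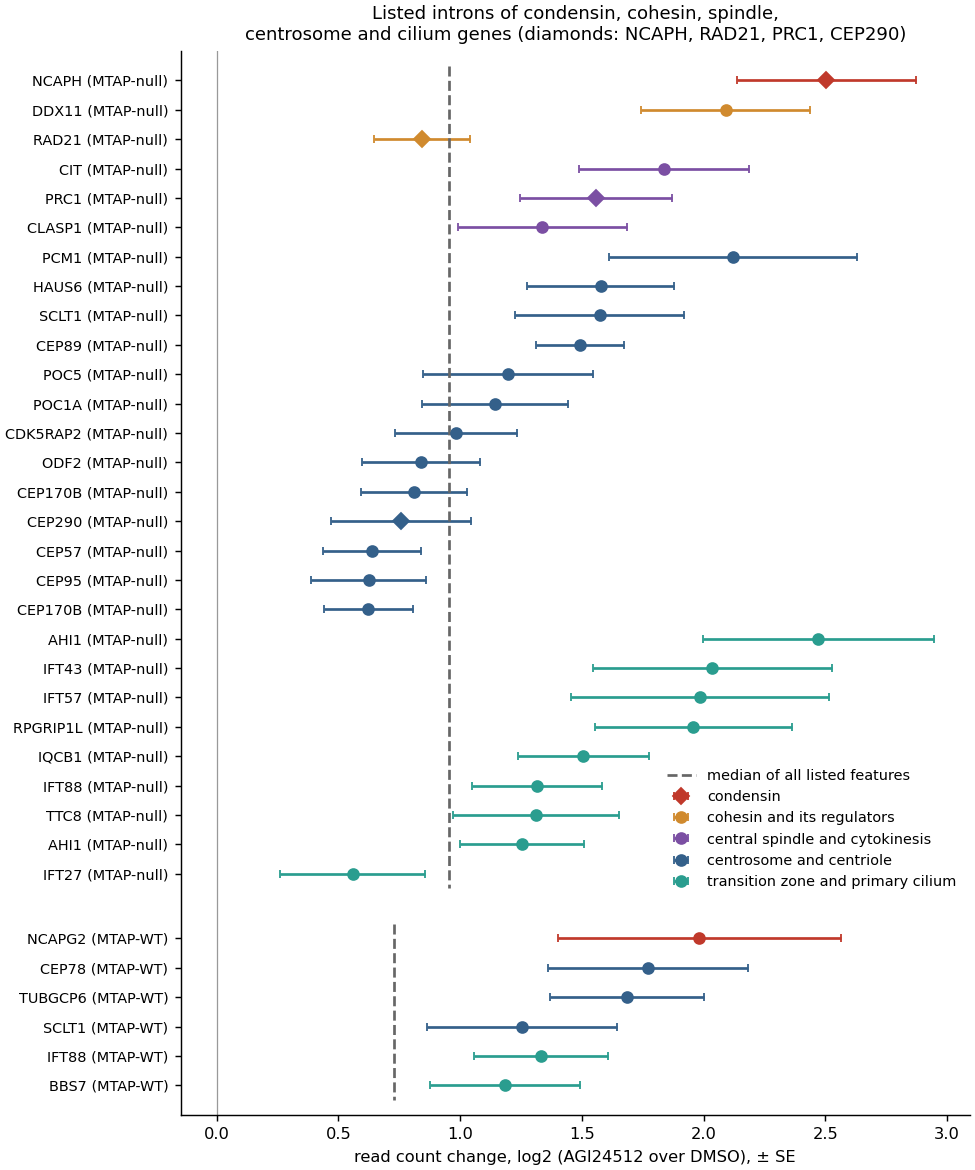
Read count change (log2, AGI24512 over DMSO) with its standard error for each listed feature of the 5 lists, MTAP-null above and MTAP-WT below, coloured by list; diamonds are NCAPH, RAD21, PRC1 and CEP290 and the dashed lines are the medians of all listed features of each genotype (0.95 and 0.73). NCAPH has the highest value drawn (2.5), and CEP290 (0.76) and RAD21 (0.84) lie a little under the median.

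In MTAP-WT cells 6 genes of the lists had a listed feature, and all 6 features rose by edgeR and did not overlap between groups, against backgrounds of 70.5% and 69.4%; 14.3% of the MTAP-WT features fell. All 6 had higher usage, while of the 54 MTAP-WT features with lower usage only 3 rose, so the background of 70.5% is low for them. With TMM scaling 4 of the 6 rose, against 23.3% of all. NCAPG2, the counterpart of NCAPG in condensin II, rose 4.04-fold on few reads, at 9.47 ± 3.50 with AGI24512 and 2.35 ± 0.685 with DMSO (SD, n = 3 each), in a feature that also carries the name of an annotated transcript and can lie in an exon. TUBGCP6, of the gamma-tubulin ring complex, rose 3.20-fold, CEP78, a centriole protein, 3.35-fold, and BBS7, of the BBSome, 2.26-fold, a call lost with TMM scaling (log2 change 0.61).

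IFT88 and SCLT1, an intraflagellar transport protein and a distal appendage protein, were the genes of the lists with the same intron listed in both genotypes. They and the other shared features had thus passed the authors' test in both genotypes. Features that passed in only MTAP-null or only MTAP-WT cells could not be compared in this way. IFT88 had 44.1 ± 3.10 normalised reads with AGI24512 and 17.9 ± 4.73 with DMSO in MTAP-null cells, and 37.5 ± 11.8 with AGI24512 and 14.9 ± 2.95 with DMSO in MTAP-WT cells (SD, n = 3 each). The drug effect differed by -0.01 on the log2 scale, MTAP-null minus MTAP-WT, with a 95% interval of -0.73 to 0.70 (edgeR adjusted p = 0.972 over 92 shared features, of which 18.5% passed). For SCLT1 it differed by 0.32, with an interval of -0.77 to 1.40 (edgeR adjusted p = 0.764). Neither difference was larger than the spread between libraries, and the wide intervals do not show that the genotypes respond alike.

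**Figure D5:**
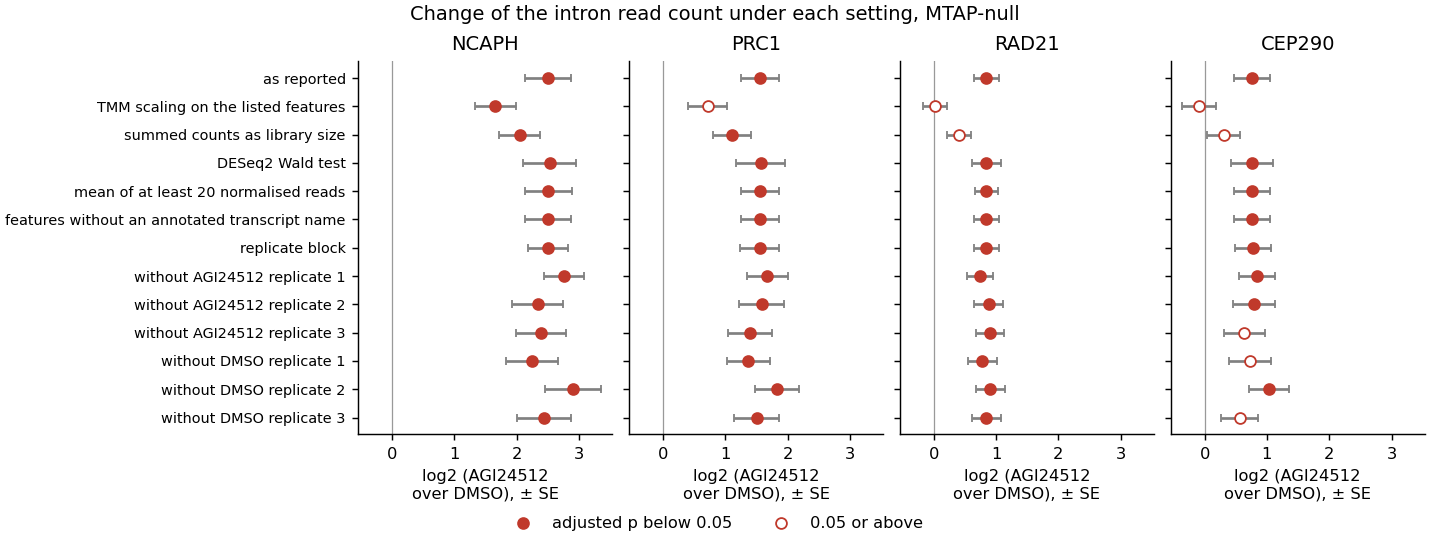
Read count change (log2, AGI24512 over DMSO, with its standard error) of the NCAPH, PRC1, RAD21 and CEP290 introns as reported (top) and under each alternative setting, filled where the adjusted p was below 0.05 and open otherwise. NCAPH is filled in all rows, PRC1 is open with TMM scaling, RAD21 with both other scalings, and CEP290 in 5 rows.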

How the data were processed

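Raw counts per feature and library, log2 folds of usage, usage scores, p-values and the signal of base means (mean of counts over size factors) stand in the deposited DEXSeq tables, per the file headers. The deposited log2 fold is DMSO over AGI24512, and its sign was turned. Inclusion levels and the score of their difference, with p-values and FDR, come from rMATS, per the file headers; levels of the 6 named events recomputed from the deposited reads matched within 0.000471. For aligner, tool versions and build nothing is given in the sources used here; 1068 of 1549 MTAP-null features (68.9%) equal an intron of GENCODE 29, GRCh38, which supplied annotation and sequence.

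Counts were divided by size factors recovered from the base means (0.859 to 1.14 in MTAP-null, 0.953 to 1.09 in MTAP-WT) and tested per genotype with edgeR 4.0.16 in R 4.3.3 (quasi-likelihood, Benjamini-Hochberg over all listed features, threshold 0.05, no filter); DESeq2 1.42.0 was an alternative. The standard error is the log2 change over the root of the test statistic. The edgeR test was also run on simulated counts with the same size factors supplied, so the simulation does not test the scaling between libraries. Libraries of a group differed by more than counting noise (chi-square over degrees of freedom 1.39 to 5.07). Members and lists were chosen with earlier results of these data known. Named were every listed row of the 7 genes and, per list and genotype, the 3 other features with the highest mean count.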

Additional observations from a re-analysis of the deposited data

How the results depend on the processing

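The read counts depend most on the scaling between libraries. Of the 4 introns of NCAPH, RAD21, PRC1 and CEP290, 1 was called as risen with TMM scaling on the listed features and 2 with summed counts as library size, and 4 with DESeq2, the filter at 20 reads, features without an annotated transcript name and the replicate block. Leaving out each library gave 3 to 4. With TMM scaling 9 of the 24 other MTAP-null features of the lists rose, and 15 with the filter, which tests fewer features. Over all features, 251 rose and 253 fell in MTAP-null with TMM scaling and 701 and 145 with summed counts. In MTAP-WT 60 rose and 68 fell with TMM scaling. TMM scaling and summed counts both rest on the listed features alone, so a lower median follows by construction where most of them rise. The cause of the shared rise was not tested, nor which scaling is right. The filter left 2 of the 6 MTAP-WT features of the lists.

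Directions turned with TMM scaling for CEP290 (-0.0867), CEP170B (-0.0506), CEP57 (-0.21), IFT27 (-0.30) and the genotype difference of IFT88 (0.0409), none of them past the threshold. Leaving out 1 library moved the IFT88 difference between -0.15 and 0.28 and that of SCLT1 between -0.0534 (without MTAP-WT DMSO replicate 2) and 0.566. Same-numbered AGI24512 and DMSO libraries correlated at 0.00805 to 0.0693 in MTAP-null and -0.117 to 0.0623 in MTAP-WT. These correlations cannot decide whether libraries of the same number were paired. The replicate block gave 1215 rises and 72 falls in MTAP-null. At an authors' adjusted p below 0.01, 1 of the 4 usage changes remained, that of NCAPH. With at least 20 reads in every library, 0 of the 3 rMATS events remained.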

Other observations

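Among the other genes of the 5 lists, 3 had an rMATS event in MTAP-null cells and none in MTAP-WT cells, and as above the treatment of a set is not named. NIPBL, the loader of cohesin, was listed for a retained intron with inclusion levels of 0.423, 0.413 and 0.384 in set 1 and 0.17, 0.184 and 0.166 in set 2 of the authors' deposited table (FDR 0.000435), on 59 to 142 reads per library. A skipped exon of 165 bases in BIRC5, the chromosomal passenger survivin, had levels of 0.042, 0.037 and 0.12 in set 1 and 0.203, 0.24 and 0.209 in set 2 (FDR 0.0098), on 73 to 121 reads. TUBGCP6, of the gamma-tubulin ring complex, had a long form of an alternative 5′ splice site at 0.2, 0.17 and 0.257 in set 1 and 0.024, 0.0 and 0.115 in set 2 (FDR 0.0171), on 16 to 51 reads. As for NCAPG, reads over the added bases can count as its long form without the splice junction. None of the 3 sets of levels overlapped, which held for 90.2% of all events listed in MTAP-null cells, so nothing particular to these genes is read from it. NIPBL and BIRC5 rest on more reads than any event of NCAPG, CEP192 or CEP164.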
